A study of Homo sapiens with 3 samples.

Results

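The values described here are those of 10 genes of the actin and contractile cytoskeleton, taken by exact symbol from the 25270 gene symbols of the deposited RNA-seq values. They are the cytoplasmic actin genes ACTB and ACTG1, the smooth muscle actin gene ACTA2, the filament turnover genes CFL1 and PFN1, the tropomyosin genes TPM1 and TPM2, the myosin light chain gene MYL9, and TAGLN and CNN1, which encode actin-binding proteins of smooth muscle. All 10 symbols were found. Of these, 9 had a mean of at least 1 FPKM over the libraries, a filter that left 12210 genes of the whole table, and CNN1 did not pass it.

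The RNA-seq libraries were made from total RNA. The first came from parental HepG2 cells, a human hepatocellular carcinoma line that received no drug. The second came from HepG2/metR, which the study reports to have derived from HepG2 under metformin, an inhibitor of mitochondrial respiration. The sample label gives an exposure of over 5 months. The last came from HepG2/metR cells kept with 40 mM oxamate, which blocks lactate dehydrogenase, for 24 h. All cultures grew in Dulbecco's medium with fetal bovine serum. Whether metformin was present when the HepG2/metR cultures were harvested, and whether HepG2/metR is a clone, is not given in the sources used here. There was 1 library per condition (n = 1), so no difference below has a replicate check, no p-value is given, and the order of genes with close levels cannot be set against any spread.

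Actin filaments grow and shrink by adding and losing actin monomers, which profilin delivers and cofilin helps to release by severing old filaments. Tropomyosins lie along the filament and govern which other proteins, myosin among them, can bind it. Non-muscle myosin II pulls on filaments when its regulatory light chain is phosphorylated, and the resulting tension drives cell shape, adhesion and migration. ACTA2, TAGLN, CNN1, MYL9, TPM1 and TPM2 are best known from smooth muscle and myofibroblasts, and many genes of this kind are under the control of serum response factor (SRF).

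Each deposited value is taken as log2(FPKM + 1). FPKM counts fragments per length of transcript and per size of library, so that levels of different genes can be set side by side. Levels are given as FPKM and changes as differences of the deposited log2 values, which understate the change of low genes. Summed FPKM was 562382 in the parental library, 534646 in HepG2/metR and 473773 with oxamate. The number of reads is unknown. Judged by the smallest values, the HepG2/metR and oxamate libraries were 1.21 and 1.24 times as deep as the parental library, and 11356, 11414 and 11649 genes reached 1 FPKM in the parental, HepG2/metR and oxamate libraries.

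The HepG2/metR libraries differed from the parental library in liver identity. Of 15 hepatocyte markers, 15 had dropped at least 2-fold in HepG2/metR, where 17.6% of all genes kept had. Their summed level was 33546 FPKM in parental cells, 14.8 in HepG2/metR and 11.8 with oxamate. APOA2, the most abundant of them, stood at 11976, 0.407 and 0.273 FPKM, ALB at 9206, 0.747 and 0.617, and HNF4A, which encodes a liver transcription factor, at 68.7, 0.0156 and 0.0153. Whether the cultures share an origin was not examined here. Selection under metformin and any other difference between the cultures cannot be told apart, nor can fewer cells of a type and less RNA per cell.

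In HepG2/metR cells the tropomyosin genes TPM1 and TPM2 and the myosin light chain gene MYL9 rose, while TAGLN and ACTA2 fell. The abundant genes ACTB, ACTG1, CFL1 and PFN1 all stayed within 2-fold of their parental level. Of the 10 genes, 3 exceeded their parental level at least 2-fold in HepG2/metR, where 16.6% of the 12210 genes kept passed that threshold, and 2 lay at least 2-fold below it, where 17.6% did. With oxamate, 0 of the 10 genes were at least 1.5-fold higher (4.3% of all genes kept) and 0 were at least 1.5-fold lower (3.82%), a threshold that equals 0.58 on the log2 scale. The count of higher genes was 1, ACTA2, in 4 of the 5 other scalings and with either smaller pseudocount. The thresholds are those of the study's methods. The 10 genes had a median difference of 0.46 in HepG2/metR and 0.02 with oxamate, beside 0.02 and 0.02 for all genes kept. With EMC7 scaling their median in HepG2/metR was 0.16, beside -0.25 for all genes kept. With equal totals their median with oxamate was 0.20, beside 0.17 for all genes kept. The interquartile range of all genes ran from -0.65 to 0.64 in HepG2/metR and from -0.18 to 0.23 with oxamate. The HepG2/metR library enters both comparisons, and so does any error in it.

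**Figure D1:**
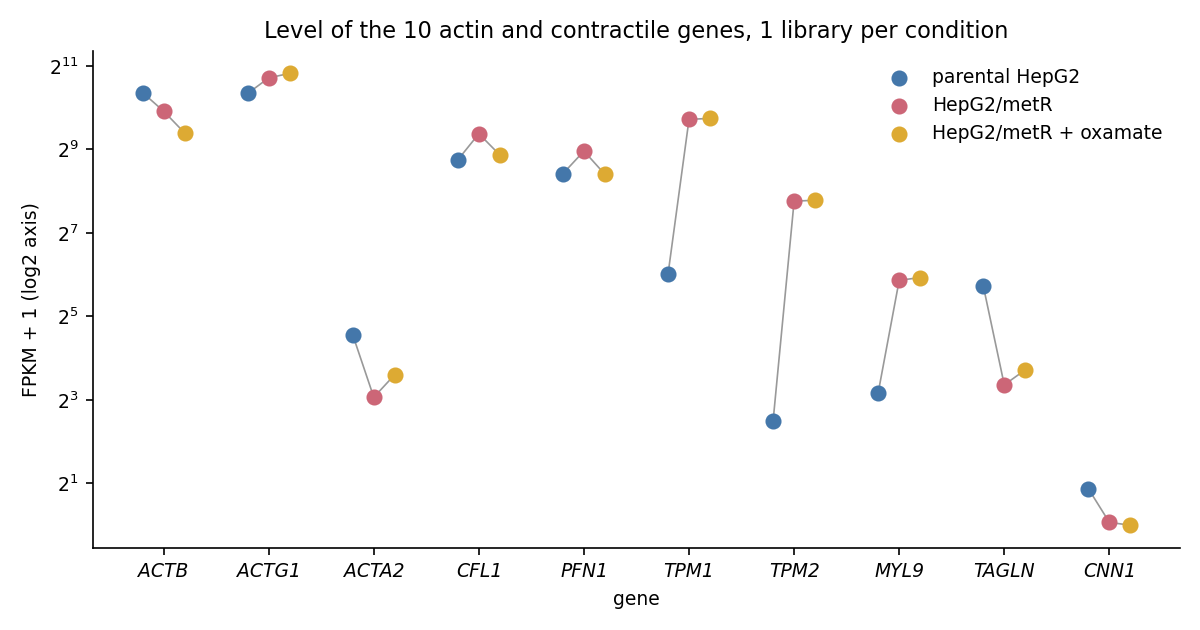
Level of the 10 genes per library (parental HepG2, HepG2/metR, and HepG2/metR with oxamate), as FPKM + 1 on a log2 axis, with 1 point per library and a line joining the libraries of a gene. TPM1, TPM2 and MYL9 are lowest in the parental library, TAGLN and ACTA2 are highest in the parental library, and CNN1 stays below 1 FPKM.

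In parental cells ACTB was listed at 1310.4 FPKM and ACTG1, the other cytoplasmic actin, at 1293, which placed them 59th and 61st of all genes. In HepG2/metR cells ACTB was listed at 963 and ACTG1 at 1674 FPKM, and with oxamate ACTB was at 670.3 and ACTG1 at 1805. The level of ACTB was thus lower in each successive library and that of ACTG1 higher. The differences for ACTB were -0.44 in HepG2/metR and -0.52 with oxamate, and those for ACTG1 were 0.37 and 0.11, none of them past its threshold. The ratio of ACTG1 to ACTB, which no scaling between libraries can change, went from 0.987 in parental cells to 1.74 in HepG2/metR and 2.69 with oxamate.

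The summed level of the 6 actin genes was 2637 FPKM in parental cells, 2644 in HepG2/metR and 2486 with oxamate. These sums differed by 1.003-fold and 0.940-fold, and whether each was above or below 1 depended on the scaling between libraries (0.818 to 1.11 and 0.946 to 1.08). Within the sum, ACTB made up 49.7% in parental cells, 36.4% in HepG2/metR and 27.0% with oxamate, and ACTG1 made up 49.0%, 63.3% and 72.6%. The muscle actins were a small part. ACTA2 held 0.853% of the sum in parental cells, 0.278% in HepG2/metR and 0.450% with oxamate, and the skeletal muscle actin gene ACTA1 went from 0.433% to 0.0030% and 0.0010%. In FPKM, ACTA1 was at 11.4, 0.0795 and 0.0260.

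Promoter windows were taken from RefSeq (GRCh38.p14), from 250 bases before to 50 bases after an annotated transcription start, to see whether the genes that moved together carry the same SRF element. Windows were matched for 7 of the 10 genes, 9 windows in all, and ACTB, MYL9 and TAGLN had no entry. The element searched is the CArG box, whose consensus is its own reverse complement, so that both strands are covered. It was found in 1.29% of 35116 windows of this length, and in 1 of the 7 genes, ACTG1. Only exact matches to the consensus were counted, so an element that departs from it by a letter is not listed. A window of ACTA2, for example, holds ccctatatgg and ccttgtttgg, each of which departs by a letter. Such stretches were not searched for in the other genes, so a gene without a match here may still carry an element of this kind. The share of 1.29% is per window and not per gene. The window of ACTG1 lies at chr17:81512750-81513049 on the minus strand, and capitals mark the box, 94 to 85 bases before the start. The windows of TPM1 at chr15:63048239-63048538 on the plus strand and of TPM2 at chr9:35689876-35690175 on the minus strand are shown because these genes had the largest rises of the 10. They hold no CArG box, and neither does a further TPM2 window at chr9:35690007-35690306.
ACTG1: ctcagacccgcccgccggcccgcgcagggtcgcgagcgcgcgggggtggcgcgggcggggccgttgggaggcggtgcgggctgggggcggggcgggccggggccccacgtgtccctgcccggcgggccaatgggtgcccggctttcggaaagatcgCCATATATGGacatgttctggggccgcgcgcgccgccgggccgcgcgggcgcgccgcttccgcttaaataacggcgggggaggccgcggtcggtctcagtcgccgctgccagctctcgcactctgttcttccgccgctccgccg
TPM1: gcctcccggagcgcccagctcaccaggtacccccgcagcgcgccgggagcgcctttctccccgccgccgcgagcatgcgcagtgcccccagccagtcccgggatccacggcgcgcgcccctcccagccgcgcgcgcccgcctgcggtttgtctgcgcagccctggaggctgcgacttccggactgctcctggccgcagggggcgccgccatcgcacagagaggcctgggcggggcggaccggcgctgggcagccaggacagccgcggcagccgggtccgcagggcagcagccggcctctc
TPM2: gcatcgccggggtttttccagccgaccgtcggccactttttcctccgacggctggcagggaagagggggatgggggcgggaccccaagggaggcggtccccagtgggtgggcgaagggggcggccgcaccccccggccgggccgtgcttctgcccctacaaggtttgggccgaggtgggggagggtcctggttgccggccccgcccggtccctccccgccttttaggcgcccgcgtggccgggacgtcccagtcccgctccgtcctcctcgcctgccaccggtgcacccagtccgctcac

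Among 14 related genes of the same families with a window, out of 16, 5 held a CArG box, namely ACTA1, ACTC1, ACTG2, TPM4 and CNN2. The stretches around the box are shown for the 3 of them that reached 1 FPKM, since their levels can be set beside it. ACTA1 has it 97 to 88 bases before the start (chr1:229434162-229434211, minus strand), TPM4 at 173 to 164 bases (chr19:16067345-16067394, plus strand) and CNN2 at 89 to 80 bases (chr19:1026499-1026548, plus strand).
ACTA1: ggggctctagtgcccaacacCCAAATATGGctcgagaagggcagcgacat
TPM4: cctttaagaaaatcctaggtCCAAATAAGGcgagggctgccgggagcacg
CNN2: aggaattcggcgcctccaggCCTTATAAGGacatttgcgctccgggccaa
ACTA1 was more than 2-fold lower in HepG2/metR, while TPM4 was listed at 156 FPKM in parental cells, 142 in HepG2/metR and 127 with oxamate and CNN2 at 75.7, 54.5 and 47.1. A match describes letters in a window and is not a measured binding site. Another element, TATAAA on either strand, was present in 11.5% of all windows and in 0 of the 9.

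TPM1 was listed at 63.4 FPKM in parental cells, 841 in HepG2/metR and 854 with oxamate. TPM2 was listed at 4.64, 215 and 219 FPKM in the same order. Both were thus far lower in the parental library than in the other libraries. TPM1 rose 13.3-fold in HepG2/metR, a log2 difference of 3.71 that 260 of the genes kept exceeded, and TPM2 rose 46.4-fold, a difference of 5.26 that 80 genes exceeded. The difference with oxamate was 0.02 for TPM1 and 0.02 for TPM2, and reached 0.22 for each under other scalings. TPM1 moved from place 1408 among all genes to place 99, which put it above CFL1 and PFN1.

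There are 4 tropomyosin genes, and their products mark different populations of filaments. In parental cells TPM4 and TPM3 carried most of the family, with 44.8% and 35.7% of its summed FPKM, while TPM1 held 18.2% and TPM2 1.33%. In HepG2/metR cells TPM1 held 59.4%, TPM3 15.3%, TPM2 15.2% and TPM4 10.1%. The leading tropomyosin gene was therefore TPM4 in the parental library and TPM1 in the other libraries. With oxamate the shares of TPM1 and TPM2 were 64.1% and 16.4%, and that of TPM3 was 9.93%. TPM3 itself was at 124 FPKM in parental cells, 217 in HepG2/metR and 132 with oxamate, and its difference of -0.71 with oxamate was past 1.5-fold as deposited, but not under every other scaling (-0.70 to -0.51).

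The summed tropomyosin level was 349 FPKM in parental cells, 1415 in HepG2/metR and 1333 with oxamate. It was 4.06-fold higher in HepG2/metR, and between 3.31-fold and 4.51-fold under the other scalings. With oxamate the sum stood at 0.942 of its level in HepG2/metR, a direction that other scalings turn (0.948 to 1.08). Set against the summed actin level of the same library, tropomyosin was at 0.132 in parental cells, 0.535 in HepG2/metR and 0.536 with oxamate. The ratio of TPM1 to TPM2 was 13.7 in parental cells, 3.90 in HepG2/metR and 3.90 with oxamate.

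MYL9 encodes a regulatory light chain of myosin II that is typical of smooth muscle and of stress fibres. It was listed at 8.004 FPKM in parental cells, 57.2 in HepG2/metR and 60.0 with oxamate. The rise in HepG2/metR was 7.15-fold, a log2 difference of 2.69. The difference with oxamate was 0.07, and up to 0.26 under other scalings. MYL12A and MYL12B, which encode closely related light chains of non-muscle myosin, were at 178, 136 and 115 FPKM and at 338, 492 and 426 FPKM. MYL9 was the least abundant of the 3 genes in every library. Its share of their sum was 1.53% in parental cells, 8.34% in HepG2/metR and 9.99% with oxamate, and MYL12B held 64.6%, 71.8% and 70.9%.

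Among the 15 genes of non-muscle myosin and its regulators, 1 was at least 2-fold higher in HepG2/metR and 4 were at least 2-fold lower. Over all genes kept these shares were 16.6% and 17.6%. The gene that rose was MYLK, which encodes the kinase that phosphorylates myosin light chains. It was listed at 7.44 FPKM in parental cells, 39.2 in HepG2/metR and 41.0 with oxamate, a difference of 2.25 and then of 0.07. Among those that fell were MYH10 and MYH14, for heavy chains of non-muscle myosin, at 33.5, 10.5 and 10.97 FPKM (-1.58) and at 4.82, 0.0102 and 0.00498 FPKM (-2.53), and CALD1, for the filament-binding protein caldesmon, at 64.9, 19.1 and 27.8 FPKM (-1.71). MYH10, MYH14 and CALD1 were singled out after their values had been seen. MYH9, for the most abundant heavy chain of non-muscle myosin, moved the other way, at 75.02, 144 and 133 FPKM, with a difference of 0.93 in HepG2/metR, short of 2-fold as deposited. With upper-quartile scaling 3 genes of the list were at least 2-fold higher, with MYH9 and PPP1R12A beside MYLK, and the count of lower genes was 4 under every scaling. The most abundant gene of the list, MYL6 for the essential light chain, was at 1022, 1108 and 888 FPKM, and the sign of its difference in HepG2/metR turned with the scaling. The calmodulin genes CALM2 and CALM3, whose product switches on MYLK, were at 612, 990.4 and 689.8 FPKM and at 152, 237 and 151 FPKM. With oxamate CALM3 differed by -0.65, past 1.5-fold as deposited but not under every other scaling (-0.64 to -0.46), and CALM2 by -0.52.

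CFL1, the cofilin gene of non-muscle cells, was listed at 429 FPKM in parental cells, 662 in HepG2/metR and 465 with oxamate. PFN1, the main profilin gene, was at 341, 496 and 336 FPKM. Both were highest in HepG2/metR and within 1.5-fold of that level with oxamate. The differences were 0.62 and -0.51 for CFL1 and 0.54 and -0.56 for PFN1, so that neither passed a threshold and PFN1 came closest to that for oxamate. Their ratio within a library was nearly level, at 1.26 in parental cells, 1.33 in HepG2/metR and 1.38 with oxamate. Relative to summed actin, CFL1 was at 0.163, 0.250 and 0.187 and PFN1 at 0.129, 0.188 and 0.135.

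Within the cofilin family CFL1 made up 65.6% in parental cells, 83.9% in HepG2/metR and 79.3% with oxamate. DSTN, which encodes the related severing protein destrin, made up 24.9%, 10.96% and 14.1%, and was itself at 163, 86.5 and 82.7 FPKM. CFL2, the cofilin gene of muscle, was at 62.0, 40.6 and 38.4 FPKM. The share of CFL1 was therefore higher in HepG2/metR and the shares of its relatives were lower. In the profilin family PFN1 made up 80.0%, 75.5% and 67.7%, and PFN2 19.9%, 24.2% and 32.1%. PFN2 was at 84.9 FPKM in parental cells, 159 in HepG2/metR and 159.5 with oxamate.

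TAGLN, which encodes transgelin (SM22), was listed at 52.2 FPKM in parental cells, 9.27 in HepG2/metR and 12.2 with oxamate. ACTA2 was listed at 22.5, 7.36 and 11.2 FPKM. Both genes were highest in the parental library and lowest in HepG2/metR. TAGLN was 5.63-fold lower in HepG2/metR, a difference of -2.37 that 806 of the genes kept exceeded, and ACTA2 was 3.06-fold lower, a difference of -1.49 that 1421 genes exceeded. With oxamate the differences were 0.36 for TAGLN and 0.54 for ACTA2. The plain ratio of the ACTA2 levels with and without oxamate was 1.52, above 1.5, whereas the deposited values, which contain a pseudocount of 1, leave the gene below the threshold of 0.58. It was past the threshold with a smaller pseudocount (0.60 with 0.1) and under every other scaling but median-of-ratios, up to 0.72.

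CNN1, which encodes the calponin of smooth muscle, was at 0.836 FPKM in parental cells, at 0.0494 in HepG2/metR and listed at 0 with oxamate. Its differences of -0.81 and -0.07 rest on levels below 1 FPKM in every library, and its size depends on the pseudocount. With a pseudocount of 0.1 the difference in HepG2/metR was -2.65. The related genes CNN2 and CNN3, of broad expression, carried the family, with CNN3 at 98.4, 99.4 and 105 FPKM. CNN2 held 43.3%, 35.4% and 31.0% of the family and CNN3 56.2%, 64.6% and 69.0%.

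TAGLN2, a relative of TAGLN that is expressed outside muscle, moved the other way. It was listed at 27.7 FPKM in parental cells, 369 in HepG2/metR and 274 with oxamate, with differences of 3.69 and -0.43. TAGLN made up 64.2% of the transgelin family in parental cells, 2.45% in HepG2/metR and 4.25% with oxamate, and TAGLN2 34.1%, 97.5% and 95.7%. The ratio of TAGLN2 to TAGLN was 0.531 in parental cells, 39.8 in HepG2/metR and 22.5 with oxamate. The summed level of the family was 81.2, 378 and 287 FPKM, 4.66-fold higher in HepG2/metR and 3.80-fold to 5.18-fold under the other scalings.

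**Figure D2:**
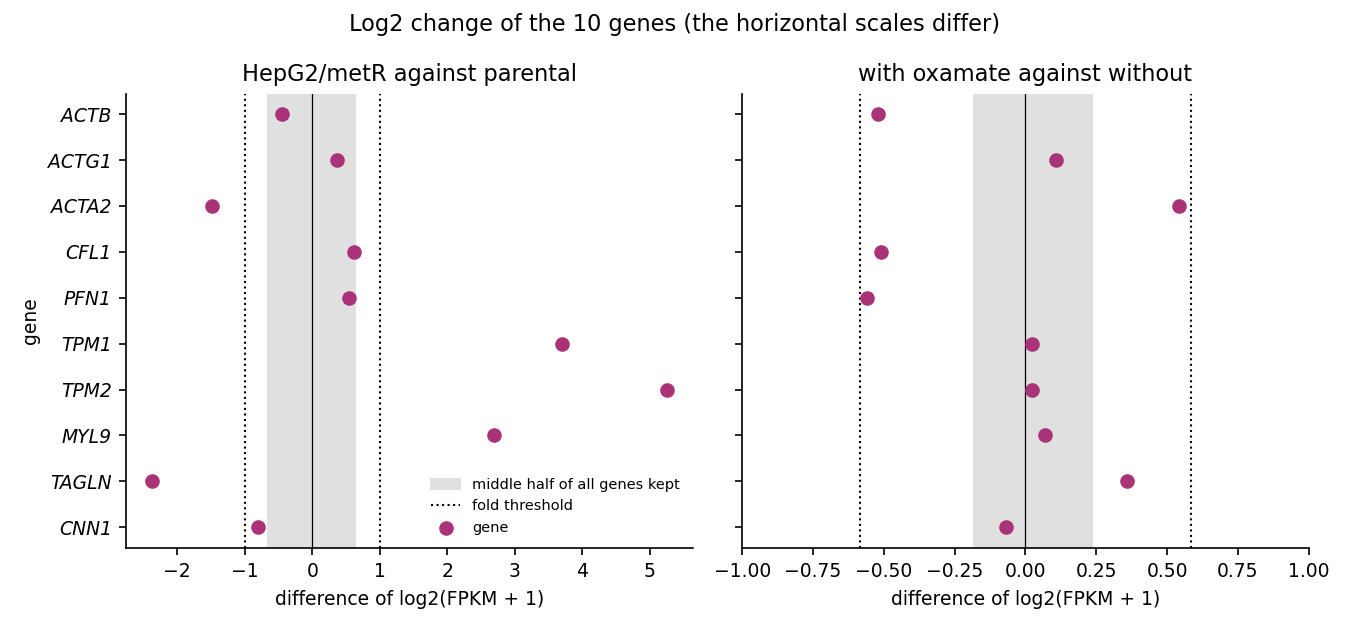
Difference of log2(FPKM + 1) of each of the 10 genes, HepG2/metR minus parental on the left and with oxamate minus without on the right, with 1 library per condition. The grey band is the interquartile range of all genes kept and the dotted lines are the 2-fold and 1.5-fold thresholds. TPM1, TPM2, MYL9, TAGLN and ACTA2 lie past the threshold on the left, and none of the 10 genes does on the right as deposited, although ACTA2 passes 1.5-fold under most other scalings.

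With oxamate the 10 genes did not stand alike. As deposited, ACTB, CFL1 and PFN1, each above 300 FPKM on average, differed by -0.52, -0.51 and -0.56. TPM1, TPM2 and MYL9, which had risen in HepG2/metR, differed by 0.07 or less, and by up to 0.26 under other scalings. ACTG1, the most abundant of the 10, differed by 0.11. Over all genes the difference with oxamate moved with abundance. Its median was 0.13 for the 5655 genes with a mean of 1 to 10 FPKM, -0.04 for the 5799 genes from 10 to 100 FPKM, -0.28 for the 516 genes from 100 to 300 FPKM, and -0.27 for the 237 genes above. Of these 237 genes, 85.2% were lower with oxamate. A difference at least as negative as that of ACTB was found in 43 of them (18.1%), as that of CFL1 in 48 and of PFN1 in 36, and a positive difference at least as large as that of ACTG1 in 22 and of TPM1 in 31. The means were taken over all libraries, so these 237 genes include some that were abundant in parental cells only. APOA1 was at 0 FPKM in HepG2/metR and 0.198 with oxamate (0.26), and AHSG at 0.299 and 0.171 (-0.15). Such genes near 0 enter the counts above, in both directions. The part of abundance in the values of the 10 genes was not tested.

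Transcript length moved with the oxamate difference too. The median was -0.15 for the 396 genes with a longest transcript of up to 1000 bases, -0.14 for 1633 genes of up to 2000, -0.02 for 4440 genes of up to 4000 and 0.12 for 5031 longer genes. The longest annotated transcript is 1878 bases for CFL1 and 1291 for PFN1, 2245 for ACTB and 2256 for ACTG1. TPM1 has 3957 bases and TPM2 1580. The part of length was not tested.

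ACTB is a common reference for relative RNA measurements, and the study used it with EMC7 as an endogenous control. Among 16 reference genes, 15 were lower and 1 higher with oxamate, RPL13A at 0.03, with a median of -0.39, and the signs of EMC7, GUSB and B2M turned under other scalings. ACTB had the most negative difference after those of PGK1 (-0.73), GAPDH (-0.66), PPIA (-0.60) and HPRT1 (-0.55). In HepG2/metR 9 were higher and 7 lower, with a median of 0.46, and GUSB turned sign under other scalings. The deposited log2 value of ACTB spanned 0.97 over the libraries, which ranked 12th of the 16 by smallness of the span.

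The smallest spans were those of GUSB (0.21), at 25.3, 23.3 and 21.7 FPKM, and EMC7 (0.29), at 95.1, 117 and 111 FPKM. The largest was that of TFRC (1.57), the transferrin receptor gene. The ratio of ACTB to EMC7 was 13.8 in parental cells, 8.26 in HepG2/metR and 6.05 with oxamate, log2 differences of -0.74 and -0.45. The ratio of ACTB to GAPDH was 0.568, 0.224 and 0.246.

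The other genes of the actin cytoskeleton were taken from lists of 132 symbols, of which 122 passed the filter. Of these, 32 were 2-fold or more higher and 12 at least 2-fold lower in HepG2/metR, and 8 were at least 1.5-fold higher and 3 at least 1.5-fold lower with oxamate. Over all genes kept these shares were 16.6%, 17.6%, 4.3% and 3.82%, and the counts in the small groups that follow are descriptions to be read against them. The median difference was 0.35 in HepG2/metR, and 0.07 with EMC7 scaling. With oxamate it was -0.06, a sign that turned with equal totals (0.11), with equal totals without small RNA genes (0.13) and with EMC7 scaling (0.01). The counts higher and lower were 24 and 20 in HepG2/metR with EMC7 scaling, and 13 and 0 with oxamate with equal totals.

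Genes that bind actin monomers or sever and cap filaments had 7 of 15 at least 2-fold higher and 1 lower, with 6 to 8 higher under the other scalings. TMSB4X, which encodes the monomer-sequestering peptide thymosin beta-4, rose from 44.0 FPKM in parental cells to 1193 in HepG2/metR and was at 1001 with oxamate. TMSB10, a related gene, rose from 1921 to 6068 FPKM and then fell to 3741 with oxamate (-0.70 as deposited, and -0.69 to -0.50 under the other scalings, which do not all keep it past 1.5-fold). The level of both thymosin genes relative to the summed actins was 0.745 in parental cells, 2.75 in HepG2/metR and 1.91 with oxamate. COTL1, for a coactosin-like protein that binds filaments, rose from 42.6 to 269 FPKM and was at 192 with oxamate. GSN, for the severing protein gelsolin, was the gene that fell, from 116 to 7.34 FPKM (-3.81), with 7.82 FPKM under oxamate.

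The Arp2/3 complex, which starts branches on existing filaments, had 0 of 9 genes past a threshold in either comparison as deposited. Its median differences were 0.08 and -0.26. The first turned sign with EMC7 scaling (-0.21), and the second was -0.08 with equal totals. As deposited, 9 of 9 were lower with oxamate, although ACTR2 and ARPC3 turned sign under other scalings. ARPC3, the most abundant, was at 254 FPKM in parental cells, 388 in HepG2/metR and 346 with oxamate, and ARPC5L, with the largest change, was at 45.8, 25.03 and 16.9. Its difference in HepG2/metR was -0.85, and -1.13 with EMC7 scaling, where it is past 2-fold. Of 23 nucleation promoters and formins, which start or lengthen unbranched filaments or activate Arp2/3, 5 were at least 2-fold higher and 1 lower in HepG2/metR, against 4 and 4 with EMC7 scaling and 7 and 1 with upper-quartile scaling. DIAPH3, a formin gene, rose from 6.09 to 20.5 FPKM and was at 15.3 with oxamate. FMNL2, another formin gene, was at 36.5 and 20.6 FPKM and rose to 34.7 with oxamate, by 0.72.

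Crosslinkers, which bundle filaments or join them into networks, had 7 of 12 genes at least 2-fold higher, 2 at least 2-fold lower and a median of 1.10 in HepG2/metR. With EMC7 scaling 4 were higher, and the median was 0.80. FLNC, which encodes the filamin of muscle, rose from 0.0230 FPKM to 70.1 and was at 78.6 with oxamate, and FLNA, the broadly expressed filamin gene, rose from 104 to 227 and was at 254. The difference of FLNA in HepG2/metR was 1.12, and 0.82 with EMC7 scaling, which is below 2-fold. PALLD, for the stress fibre protein palladin, rose from 2.39 to 14.0 FPKM and again to 23.0 with oxamate, by 0.68. VIL1 fell. It encodes villin, a bundling protein of microvilli in epithelial cells, and was at 120.3 FPKM in parental cells, listed at 0 in HepG2/metR and at 0.0522 with oxamate.

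Of 15 genes for proteins that link filaments to the membrane, 6 were at least 2-fold higher and 1 lower in HepG2/metR, and 0 were past 1.5-fold with oxamate. With EMC7 scaling 4 were higher and 2 lower in HepG2/metR, EZR and LASP1 being the genes no longer higher, and with equal totals 1 gene, LIMA1, was past 1.5-fold with oxamate. MSN, for moesin, rose from 0.379 FPKM to 183 and was at 155 with oxamate, while its relative EZR, for ezrin, rose from 53.1 to 124 and was at 119. The difference of EZR in HepG2/metR was 1.21, and 0.92 with EMC7 scaling. LIMA1, which encodes a filament-stabilising protein, rose from 13.7 to 101 FPKM and was at 144 with oxamate, a difference of 0.50 as deposited and of 0.51 to 0.69 under the other scalings.

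Of the SRF group, 6 genes passed the filter, of which 2 were 2-fold or more higher in HepG2/metR and 2 at least 1.5-fold higher with oxamate. With EMC7 scaling HepG2/metR had 2 of them at least 2-fold lower, and with upper-quartile scaling 3 were at least 2-fold higher. SRF itself was at 25.02 FPKM in parental cells, 15.1 in HepG2/metR and 13.3 with oxamate. The genes that rose in HepG2/metR were ELK3, from 7.93 to 46.7 FPKM, and ELK1, from 6.88 to 24.5, which encode partners of SRF. The cofactor genes of actin-dependent SRF activity, listed under the older names MKL1 and MKL2, were at 7.39, 3.89 and 3.47 FPKM and at 5.78, 2.66 and 4.66 FPKM. These are named beside the rule for their link to actin, after their values had been seen.

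**Figure D3:**
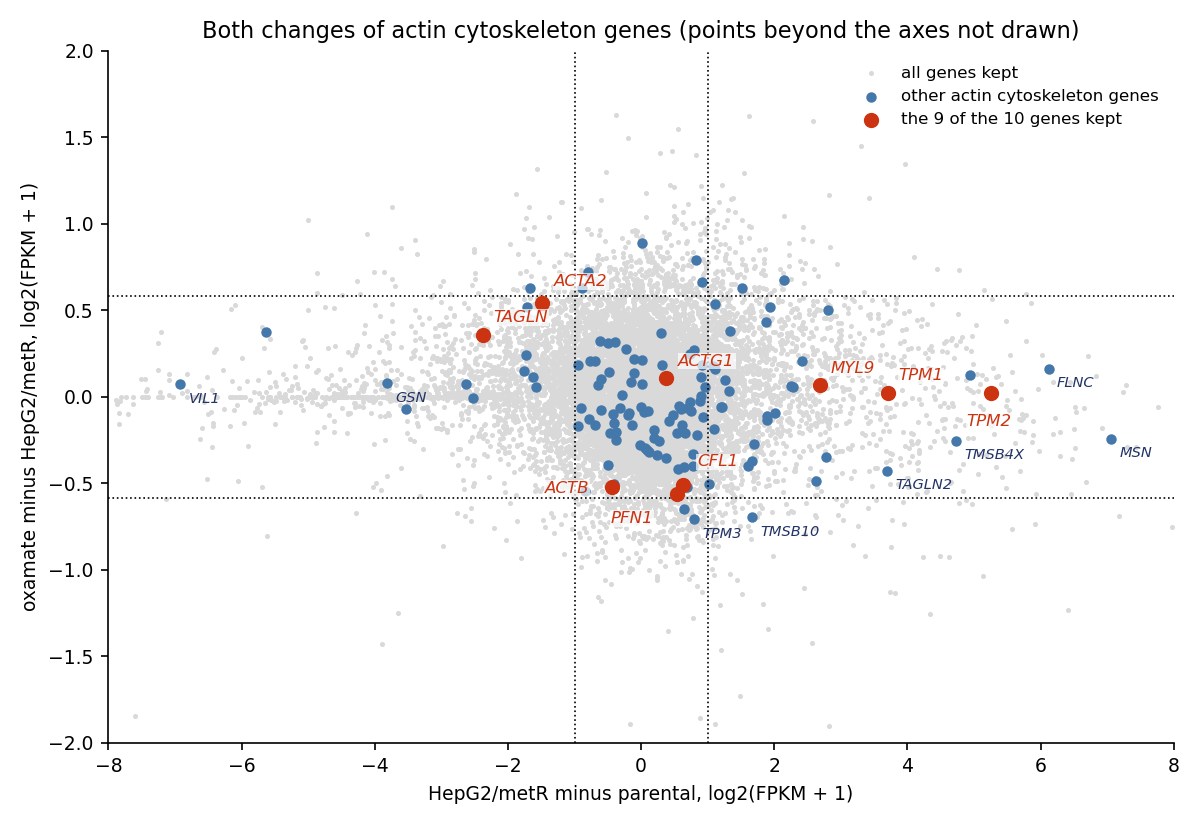
Difference of log2(FPKM + 1) in HepG2/metR against parental cells (horizontal) and with oxamate against HepG2/metR (vertical), where red points are the 9 of the 10 genes that passed the filter, blue points other actin cytoskeleton genes and grey points all genes kept. Dotted lines are the 2-fold and 1.5-fold thresholds, the axes share the HepG2/metR library, and 3 red points lie to the right of the 2-fold line and 2 to the left.

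Markers of cells in which these genes are best known were read beside them. Of 11 smooth muscle markers, which include ACTA2, TAGLN and CNN1, 8 were below 1 FPKM in every library. The summed level was 93.7 FPKM in parental cells, 48.2 in HepG2/metR and 54.6 with oxamate. SMTN, for smoothelin, was the most abundant by mean level at 18.0, 31.5 and 31.1 FPKM, while DES was listed at 0 in every library, and MYH11, the myosin heavy chain of smooth muscle, was at 0.0366 FPKM in parental cells and listed at 0 in the others.

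Of 15 striated muscle markers, 9 were below 1 FPKM in every library, 4 of them at 0, and the sum was 29.9, 51.9 and 48.3 FPKM. TNNT1, for the troponin T of slow muscle, was the most abundant by mean level, at 0.330 FPKM in parental cells, 49.8 in HepG2/metR and 44.2 with oxamate. In parental cells the most abundant were TNNC1, for a troponin C, and ACTA1. TNNC1 was at 13.8, 0.143 and 0.782 FPKM and ACTA1 at 11.4, 0.0795 and 0.0260. TNNC2 was at 2.77, 0.0741 and 0 FPKM, TNNT2 at 0.0438, 0.458 and 1.97, and MYH3 at 0.984, 0.778 and 1.04.

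Of 10 fibroblast markers, 6 were below 1 FPKM in every library, and the sum was 5.41 FPKM in parental cells, 61.2 in HepG2/metR and 63.8 with oxamate. THY1, a surface protein gene, was at 0.0374, 53.3 and 48.5 FPKM and made most of the sum in HepG2/metR and with oxamate, but not in parental cells. LUM was at 0.172, 3.25 and 6.69 FPKM and PDGFRB at 3.43, 3.66 and 7.26, while COL1A1, a collagen gene typical of fibroblasts, was at 1.22, 0.494 and 0.677. Of 5 endothelial markers 0 reached 1 FPKM, with a sum of 0.347, 0.0724 and 0.230 FPKM, and of 5 leukocyte markers 3 did not, CD68 being at 35.7, 43.0 and 31.0 FPKM and CD14 at 2.19, 0.715 and 0.607. The part of these cell types in the values of the 10 genes was not tested.

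The genes whose deposited values lay nearest to those of TPM1 and TPM2 were sought among 6551 genes with a mean of at least 10 FPKM, by Euclidean distance over the 3 libraries. Nearest to TPM2 were PFKP (distance 0.42), AXL (0.43) and MOK (0.47). PFKP was at 4.22, 182 and 174 FPKM and AXL, which encodes a receptor kinase, at 3.22, 231 and 215. Nearest to TPM1 were THBS1 (0.33), TMSB4X (0.76) and S100A11 (1.13), and THBS1, for thrombospondin 1, was at 57.4, 762 and 1025 FPKM. With 3 libraries such distances describe levels only.

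Actin and related genes have many copies and genes of similar sequence in the genome that can take up reads. Of 11 such genes listed, among them ACTBL2 and genes of the POTE family, 2 were at 0 in every library. The highest level was 2.34 FPKM for TPM3P9 in parental cells. How reads matching several places were shared out is not given in the sources used here, so a loss of reads from ACTB, ACTG1 or TPM3 to such genes cannot be measured. Exons of genes on the opposite strand overlap ACTA2 (FAS, 380 bases), CFL1 (MUS81, 759 bases), PFN1 (ENO3, 111 bases) and TAGLN (PCSK7, 446 bases) in GENCODE 29, and TPM1 overlaps TPM1-AS by 2070 bases. Whether strand was kept is not given, so reads of such a pair cannot be told apart. FAS was at 12.3 FPKM in parental cells, 15.3 in HepG2/metR and 15.5 with oxamate, and PCSK7 at 9.15, 10.7 and 10.2, of the same order as ACTA2 and TAGLN in HepG2/metR. MUS81 did not exceed 13.9 FPKM, far below CFL1.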

How the data were processed

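The authors deposited 1 file per library with 1 value per gene symbol, on a log2 scale of the form log2(FPKM + 1), a unit inferred from the values. The submitters' processing notes name STAR 2.5.1b, FastQC 0.11.5, Cufflinks 2.2.1 and hg19. The annotation, the options and the handling of strand and of multiply mapped reads are not given in the sources used here. Values were used without rescaling and turned back to FPKM for levels. Changes are differences of the deposited values, with the pseudocount of 1 they contain. Genes with a mean of at least 1 FPKM were kept (12210). With 1 library per condition no test was run, and thresholds of 2-fold and 1.5-fold were applied. Relative depth rests on values below 0.15 FPKM. The calculation of the differences and the calls at the fold thresholds were tested on simulated data with known changes. Lengths and overlaps come from GENCODE 29, which matched 94.2% of the genes kept, and promoter windows from RefSeq (GRCh38.p14), neither of which is the build of the files, so no coordinates of the files were used.

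The 10 genes and all gene lists were chosen with earlier results of these data known. Genes named from other lists were drawn from the 3 most abundant, or those with the 2 largest changes in HepG2/metR or a change past 1.5-fold with oxamate at a mean of at least 10 FPKM, and markers at 1 FPKM or more. Not every gene so drawn is reported here. Outside this rule, and with their values seen, stand DES and MYH11, TPM4 for its share of its family, MYH9, MYH10, MYH14, PPP1R12A, CALD1, MKL1 and MKL2. Reference genes and genes of the promoter, overlap and similarity searches are named from those results. Alternatives were pseudocounts of 0.1 and 0.01, no filter or a mean of at least 5 FPKM, median-of-ratios, upper-quartile, equal-total (with and without small RNA genes) and EMC7 scaling, and swapped thresholds. Python 3.11, numpy 2.4.6, pandas 2.3.3 and matplotlib 3.10.9 were used.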

Additional observations from a re-analysis of the deposited data

How the results depend on the processing

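Under the 10 alternatives each of the 10 genes kept the sign of both differences. In HepG2/metR, TPM2 ranged from 5.00 to 5.53, TPM1 from 3.42 to 3.86, MYL9 from 2.42 to 2.84, TAGLN from -2.65 to -2.22, ACTA2 from -1.76 to -1.35, ACTB from -0.74 to -0.29 and ACTG1 from 0.08 to 0.52. With oxamate, ACTB ranged from -0.52 to -0.33, ACTG1 from 0.11 to 0.30, TPM1 and TPM2 from 0.02 to 0.22 and MYL9 from 0.07 to 0.26. The count of the 10 genes at least 1.5-fold higher with oxamate was 1 in place of 0, ACTA2, with a pseudocount of 0.1 (0.60) or 0.01 (0.60), upper-quartile scaling (0.59), equal totals (0.70), equal totals without small RNA genes (0.72) and EMC7 scaling (0.61). The count at least 1.5-fold lower with oxamate was 1, CNN1 at -2.57, with a pseudocount of 0.01, and CNN1 also made the count at least 2-fold lower in HepG2/metR 3 with either smaller pseudocount (-2.65 and -3.83), which follows from its level below 1 FPKM. The median of the 10 genes in HepG2/metR was 0.16 with EMC7 scaling, which shifts all genes. Their median with oxamate was 0.20 with equal totals and 0.22 without small RNA genes. The median of the transgelin family in HepG2/metR was -1.20 without the filter, since TAGLN3 then enters. The median of all genes moved to 0.15 in HepG2/metR with upper-quartile scaling and to -0.25 with EMC7 scaling, and with oxamate to 0.17 with equal totals and 0.18 without small RNA genes. Of the genes past the threshold, the share that was higher was 48.5% in HepG2/metR. It was 36.5% with EMC7 scaling, 55.1% with upper-quartile scaling, and 51.5% and 51.4% with equal totals with and without small RNA genes. With oxamate it went from 53.0% to 63.9% with upper-quartile scaling and 69.1% with EMC7 scaling. Equal totals with and without small RNA genes gave 86.0% and 88.2% with oxamate. The other actin genes at least 1.5-fold higher and lower with oxamate numbered 13 and 0 of 122 with equal totals, where 9.70% and 1.57% of all genes kept were so. With EMC7 scaling 24 lay 2-fold or more higher and 20 lower in HepG2/metR, beside 13.2% and 22.9% of all genes kept. With the fold thresholds swapped, 55 of the other actin genes were higher and 26 lower in HepG2/metR and 0 passed with oxamate, beside 26.7%, 27.03%, 0.541% and 0.524% of all genes kept. Of the 10 genes 4 were then higher and 3 lower in HepG2/metR and 0 passed with oxamate. Shares within a family and ratios within a library do not depend on scaling. Without replicates or read numbers, the error of any value is unknown.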
